A study of Mus musculus with 68 samples.

Results

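Genes that mark endothelial cells, the cells that line blood vessels, were followed through cultures of bone mesenchymal stromal cells. The 10 genes are Cdh5, Pecam1, Esam, Cldn5, Kdr, Flt1, Tek, Tie1, Emcn and Egfl7. They were taken by symbol from a count table with 27179 gene identifiers, and all 10 were found once. The list was selected on levels already seen in these data, those of Cdh5 and Pecam1 in 1 WT and 2 Het cultures from 3-month-old mice. The levels below are therefore a description. Fitted differences of Cdh5 and Pecam1 are given with intervals and without a p, and they rest in part on the cultures that chose the list.

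The RNA came from stromal cells isolated from mouse long bones, grown in culture and sequenced as 17 cultures, each split over 4 technical replicates. Het cultures came from Ezh2fl/+:Prxx-1-Cre mice, which carry 1 floxed copy of Ezh2, the histone H3 lysine 27 methyltransferase of the Polycomb repressive complex 2. WT cultures came from Ezh2+/+:Prrx-1-Cre mice, so both genotypes carry the Cre recombinase. Of the cultures, 6 were Het from mice aged 12 months (Het 12M), 4 were WT at 12 months (WT 12M), 3 were Het at 3 months (Het 3M) and 4 were WT at 3 months (WT 3M). Cultures are named by group and by the sample number that the labels give, such as WT 3M S5. Prrx1-driven Cre acts in limb mesenchyme, the source of the stromal cells; endothelial cells lie outside its usual reach. The labels give 3 to 6 cultures in a group, whereas the submitters wrote of 3 biological samples in each. The labels do not say whether each culture came from a separate mouse, so p-values measure only the spread between these cultures, which may be technical in part.

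Endothelial cells hold together through VE-cadherin at their junctions, take their growth signal from vascular endothelial growth factor (VEGF) through VEGF receptors, and are kept quiescent by angiopoietins acting on the Tie receptors. In long bone they form the arteries and the wide sinusoids of the marrow, and stromal cells lie directly against them. Many genes of the lineage are switched on by ETS transcription factors such as Erg and Fli1, which bind DNA around a GGAA core.

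On GRCm38.p6 (the mm10 assembly) RefSeq places Cdh5 at chr8:104101613-104144504, Pecam1 at chr11:106654213-106715281, Esam at chr9:37528089-37538319 and Cldn5 at chr16:18776847-18778262. Kdr lies at chr5:75932827-75979072 and Flt1 at chr5:147561604-147726438. Tek lies at chr4:94739086-94874976 and Tie1 at chr4:118471191-118489849, while Emcn lies at chr3:137341062-137431069 and Egfl7 at chr2:26581083-26592682. The values below are counts over the exons of each gene.

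Promoters are shown here for 3 genes whose levels ran together with Cdh5 (Tie1, Emcn and Kdr) and for Egfl7, whose level did not. Each run holds 250 bases before and 50 bases after the annotated start, 5′ to 3′ on the gene's own strand, from RefSeq on GRCm38.p6. Capitals mark AGGAAG or CGGAAG, extended forms of the ETS core, on either strand (CTTCCT and CTTCCG on the reverse).
Tie1, chr4:118489800-118490099, minus strand: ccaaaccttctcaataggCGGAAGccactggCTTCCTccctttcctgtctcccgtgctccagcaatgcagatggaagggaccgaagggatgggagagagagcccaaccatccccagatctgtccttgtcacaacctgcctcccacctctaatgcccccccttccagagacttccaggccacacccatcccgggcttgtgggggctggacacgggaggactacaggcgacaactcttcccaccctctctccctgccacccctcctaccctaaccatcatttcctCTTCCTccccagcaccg
Emcn, chr3:137340828-137341127, plus strand: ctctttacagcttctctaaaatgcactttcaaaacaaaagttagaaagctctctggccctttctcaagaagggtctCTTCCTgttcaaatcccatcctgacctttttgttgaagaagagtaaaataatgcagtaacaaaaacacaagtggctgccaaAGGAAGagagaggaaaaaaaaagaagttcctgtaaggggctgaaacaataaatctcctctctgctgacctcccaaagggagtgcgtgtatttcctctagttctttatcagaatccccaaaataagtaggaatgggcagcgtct
Kdr, chr5:75978406-75978705, minus strand: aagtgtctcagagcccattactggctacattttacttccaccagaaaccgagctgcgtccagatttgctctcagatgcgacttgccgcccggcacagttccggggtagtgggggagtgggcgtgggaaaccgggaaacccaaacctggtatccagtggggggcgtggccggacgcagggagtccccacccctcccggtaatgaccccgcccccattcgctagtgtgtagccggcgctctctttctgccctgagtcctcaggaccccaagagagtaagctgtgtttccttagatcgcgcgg
Egfl7, the most upstream of its 3 starts, chr2:26580833-26581132, plus strand: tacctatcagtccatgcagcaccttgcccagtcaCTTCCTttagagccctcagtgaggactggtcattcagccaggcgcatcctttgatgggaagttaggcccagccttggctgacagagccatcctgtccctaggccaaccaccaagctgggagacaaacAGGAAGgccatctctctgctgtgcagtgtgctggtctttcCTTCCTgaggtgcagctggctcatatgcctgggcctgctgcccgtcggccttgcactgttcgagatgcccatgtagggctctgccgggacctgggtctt
Tie1 held 3 such matches, Emcn 2, this Egfl7 start 3 and Kdr none. Promoter entries were found for 7 of the 10 genes, 9 entries in all. At least 1 match was in 5 of the 9 entries, from 4 genes. Egfl7 had 3 of the entries, and 1 of these had no match. Among 32851 promoters of the same length, 46.5% held at least 1 of the pair, 35.4% AGGAAG and 16.9% CGGAAG. The motif AGATAA, a form of the GATA core, was in 1 of the 9 entries, that of Tek, and in 11.2% of all promoters. No entry was found for Cdh5, Pecam1 or Esam. A match is a string of letters in a window and was not tied to binding.

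Sequencing depth was 13687876 to 28597221 counts in Het 12M cultures, 16856720 to 23575978 in WT 12M, 17326547 to 20001884 in Het 3M and 19875204 to 24212728 in WT 3M. At that depth 3 counts, the limit that a count of 0 allows, correspond to a level of 0.102 to 0.218 CPM by culture, counting error only. CPM here are read counts scaled to a common library size with TMM factors. Ezh2 itself averaged 17.7 ± 5.52 CPM in Het 12M and 19.8 ± 12.3 CPM in WT 12M, and 11 ± 2.29 CPM in Het 3M and 12.6 ± 2.32 CPM in WT 3M (SD, n = 6, 4, 3 and 4). The fitted log2 difference of Ezh2 was -0.16 at 12 months and -0.19 at 3 months, and neither passed the test. Gene counts do not separate the floxed exons from the rest of the gene. Some libraries stood apart in other genes. Het 12M S9 carried 38968 CPM over 14 leukocyte and macrophage genes, against 24.8 to 2852 CPM in the other 16 cultures. WT 12M S6 carried 453 CPM over 6 Schwann and neural crest genes, against a median of 41.9 CPM over all cultures, and Het 12M S15 had the lowest stromal sum. In the 4 WT 12M cultures the sex-linked transcripts went against the labelled sex: the Y-linked Ddx3y was at 0 and 0.285 CPM, and Xist at 362 and 295 CPM, in the male-labelled S2 and S13. Ddx3y was at 41.3 and 55.9 CPM in the female-labelled S6 and S7, and S7 held Xist as well, at 81.6 CPM. Het 3M S8 and Het 3M S10 were the most alike pair of cultures, yet their counts differed far beyond the technical replicates (chi-square per degree of freedom 18.5, against 1.02 to 1.06). They were kept as 2 cultures, and the labels do not say whether they share a mouse.

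Stromal transcripts were abundant in every culture, and the endothelial genes were minor transcripts. The 10 stromal markers summed to between 7978 and 33125 CPM in every culture. The most abundant were Col1a1, Col1a2, Cxcl12 and Prrx1, at means of 8206, 7767, 4314 and 520 CPM, and the least was Lepr at 4.42 CPM. In Het 12M S9 the 14 leukocyte and macrophage genes held more, 38968 CPM against 20565 CPM of the stromal markers. The 10 endothelial genes together summed to between 6.54 and 93.5 CPM, with a median of 14.2 CPM. That sum was 12.8 ± 4.74 CPM in Het 12M and 14.9 ± 6.63 CPM in WT 12M cultures, and 34.5 ± 22.1 CPM in Het 3M and 35.3 ± 39.1 CPM in WT 3M cultures (SD). The highest sums were 53.8 CPM in Het 3M S8 and 39.4 CPM in Het 3M S10, and 93.5 CPM in WT 3M S5. All other cultures lay at or below 23.1 CPM. In bulk RNA, fewer endothelial cells and less of the transcript per cell cannot be told apart.

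**Figure D1:**
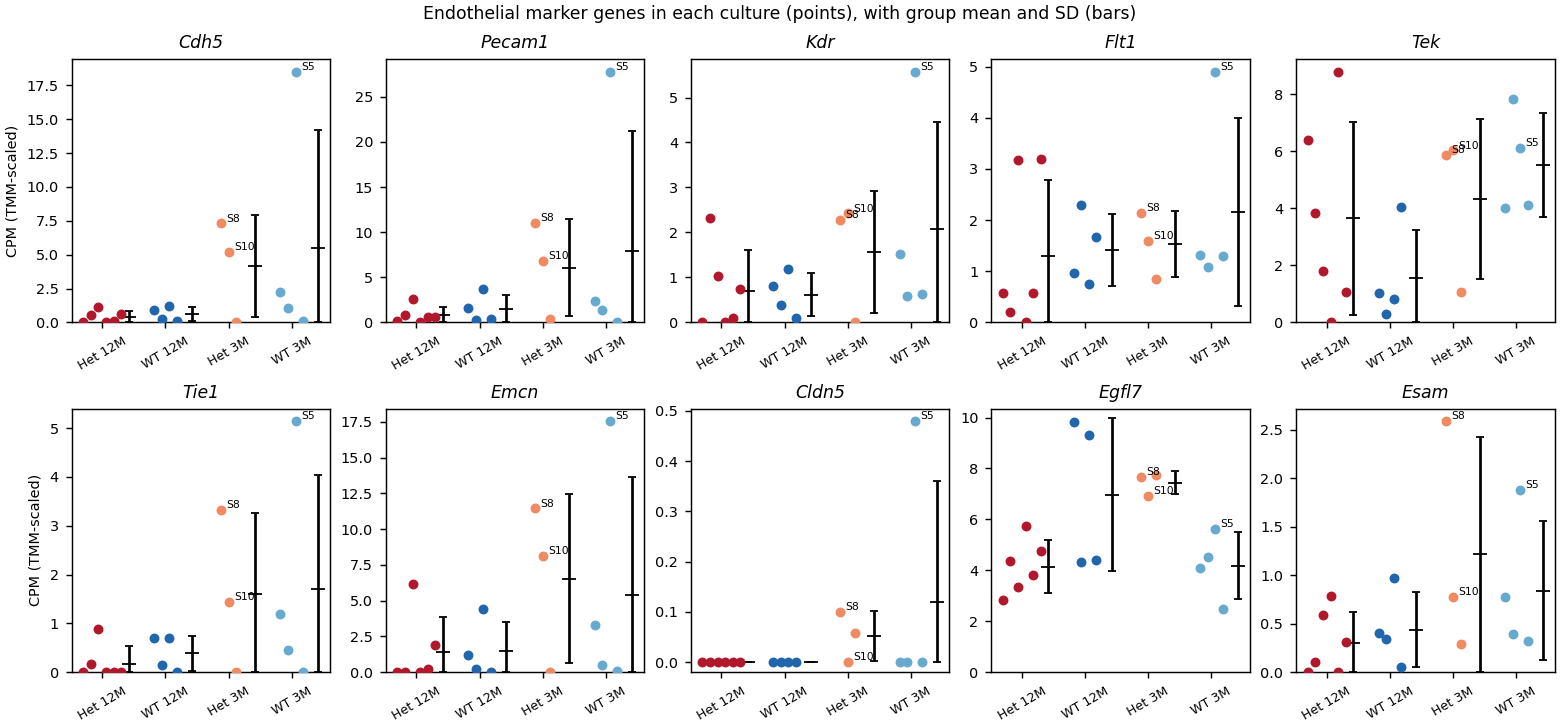
Level of each of the 10 genes (y axis, TMM-scaled CPM, a separate scale per gene) in the Het 12M, WT 12M, Het 3M and WT 3M cultures (x axis). Points are cultures, horizontal ticks are group means, and bars are 1 SD with the lower end stopped at 0. Cultures S5, S8 and S10 are labelled. The highest point is S5 or S8 in all panels but those of Tek and Egfl7. These cultures are the 3 highest only for Cdh5, Pecam1, Tie1 and Emcn.

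Cdh5 encodes VE-cadherin, the adhesion molecule of endothelial junctions. Cdh5 stood at 0 to 1.13 CPM in the 6 Het 12M cultures, with a median of 0.311 CPM. WT 12M cultures had 0.918, 0.240, 1.19 and 0.0950 CPM in S2, S6, S7 and S13. Het 3M cultures had 7.31, 5.21 and 0 CPM in S8, S10 and S14. WT 3M cultures had 2.25, 1.08, 18.5 and 0.0791 CPM in S3, S4, S5 and S12. So 2 Het 3M cultures and 1 WT 3M culture stood above all others, while Het 3M S14 had no Cdh5 count and WT 3M S12 had 2 counts. Each pair of groups overlapped, and the 3M groups each held a culture at or near 0 beside their high ones.

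Pecam1 (CD31), an adhesion receptor of endothelial cells that platelets and some leukocytes also carry, followed the same cultures. It reached 0 to 2.64 CPM in Het 12M cultures (median 0.591). The WT 12M cultures S2, S6, S7 and S13 had 1.61, 0.288, 3.69 and 0.332 CPM. In Het 3M it stood at 11, 6.86 and 0.341 CPM in S8, S10 and S14, and in WT 3M at 2.42, 1.38, 27.8 and 0.0791 CPM in S3, S4, S5 and S12. The culture richest in leukocyte transcripts, Het 12M S9, had 0.829 CPM of Pecam1, the second highest of its 6. The part of leukocyte transcripts in that value was not tested.

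Esam, a junctional adhesion molecule shared by endothelial cells and platelets, stood at 0 to 0.785 CPM in Het 12M cultures (median 0.205), and 0.402, 0.336, 0.967 and 0.0475 CPM in the WT 12M cultures S2, S6, S7 and S13. Het 3M S8, S10 and S14 had 2.59, 0.773 and 0.284 CPM, and WT 3M S3, S4, S5 and S12 had 0.779, 0.394, 1.87 and 0.316 CPM. Het 3M S8, not WT 3M S5, was its highest culture. Cldn5, the tight-junction claudin of tight vessels such as those of the brain, was close to absent from the libraries. It had 13 counts in all: 2 in Het 3M S8, 1 in Het 3M S14 and 10 in WT 3M S5, with 0 counts in the other 14 cultures.

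The VEGF receptors differed from each other. Kdr (VEGFR2), the main signalling receptor for VEGF-A, was at 0 to 2.33 CPM in Het 12M (median 0.426) and at 0.803, 0.384, 1.19 and 0.0950 CPM in WT 12M S2, S6, S7 and S13. It stood at 2.29, 2.42 and 0 CPM in Het 3M S8, S10 and S14, and at 1.52, 0.591, 5.58 and 0.632 CPM in WT 3M S3, S4, S5 and S12. WT 3M S5 was again the highest. The third highest culture was Het 12M S9, the one rich in leukocyte transcripts, with 2.33 CPM of Kdr beside 0.518 CPM of Cdh5; the part of the leukocyte transcripts in that value was not tested.

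Flt1 (VEGFR1), which binds VEGF-A tightly and signals weakly, was more even. Het 12M cultures ranged over 0 to 3.20 CPM (median 0.575), and the WT 12M cultures S2, S6, S7 and S13 had 0.976, 2.30, 0.747 and 1.66 CPM. Het 3M S8, S10 and S14 had 2.14, 1.60 and 0.853 CPM, while WT 3M S3, S4, S5 and S12 had 1.31, 1.08, 4.90 and 1.30 CPM. Apart from WT 3M S5, the next highest were 2 Het 12M cultures, S17 and S11. Flt1 was above 0 in 16 of the 17 cultures, including Het 3M S14, which had neither Cdh5 nor Kdr.

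The Tie receptors also parted. Tek (TIE2), the receptor for angiopoietins, which some macrophages and stromal cells also carry, was detected in every culture but Het 12M S15. Het 12M cultures ranged from 0 to 8.79 CPM (median 2.82), and Het 12M S16 and S1 held 8.79 and 6.39 CPM. WT 12M S2, S6, S7 and S13 had 1.03, 0.288, 0.835 and 4.04 CPM. Het 3M S8, S10 and S14 had 5.87, 6.03 and 1.08 CPM, and WT 3M S3, S4, S5 and S12 had 4.02, 7.83, 6.10 and 4.11 CPM. WT 3M S5, highest for most of the other genes, was the fourth highest culture here, and Het 12M S1 and S16 were high in Tek with at most 2 counts of Cdh5. Tie1, its orphan partner receptor, did follow Cdh5. It was at 0 in 4 of 6 Het 12M cultures, with 0.881 CPM as the highest, and at 0.689, 0.144, 0.703 and 0 CPM in WT 12M S2, S6, S7 and S13. Het 3M S8, S10 and S14 had 3.33, 1.44 and 0 CPM, and WT 3M S3, S4, S5 and S12 had 1.19, 0.443, 5.14 and 0 CPM.

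Emcn encodes endomucin, a sialomucin of capillaries, veins and bone sinusoids. It ranged over 0 to 6.17 CPM in Het 12M (median 0.103), with S11 far above the rest, and was at 1.21, 0.192, 4.44 and 0 CPM in WT 12M S2, S6, S7 and S13. Het 3M S8, S10 and S14 had 11.4, 8.15 and 0 CPM, and WT 3M S3, S4, S5 and S12 had 3.32, 0.492, 17.5 and 0.0791 CPM. Cdh5, Pecam1, Tie1 and Emcn were the 4 genes whose 3 highest cultures were WT 3M S5, Het 3M S8 and Het 3M S10. For Cdh5 and Pecam1 this restates the choice of the list.

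Egfl7, a secreted protein of the vessel wall whose gene hosts the microRNA miR-126, was the 1 gene above 0 in all 17 cultures. Het 12M cultures had 2.83 to 5.75 CPM (median 4.09), and the WT 12M cultures S2, S6, S7 and S13 had 9.81, 4.32, 9.32 and 4.42 CPM. Het 3M S8, S10 and S14 had 7.66, 6.91 and 7.73 CPM, and WT 3M S3, S4, S5 and S12 had 4.10, 4.53, 5.62 and 2.49 CPM. All 3 Het 3M cultures lay above all 4 WT 3M cultures and above all 6 Het 12M cultures. WT 3M S5, where Cdh5 peaked, was unremarkable for Egfl7, and Het 3M S14, with no Cdh5 count, held as much as S8. In the GENCODE M21 annotation the exons of Egfl7 share 264 bases with Gm20532 on the same strand and 64 bases with Agpat2 on the opposite strand. The library kit does not mark strand, so reads in those bases could have been assigned to either gene or dropped, and the level of Egfl7 is uncertain to that extent.

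**Figure D2:**
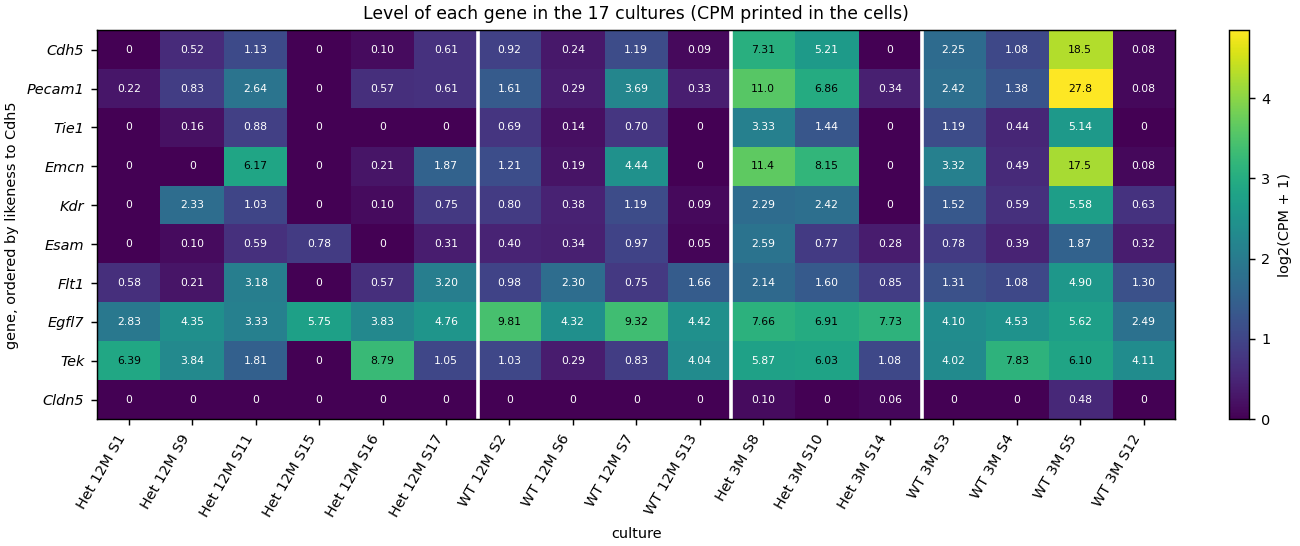
Level of each gene (rows, ordered by likeness to Cdh5 with the untested Cldn5 last) in each of the 17 cultures (columns, Het 12M, WT 12M, Het 3M and WT 3M from left to right, white lines between groups). Colour is log2(CPM + 1) and the printed values are TMM-scaled CPM. The upper rows brighten together in Het 3M S8, Het 3M S10 and WT 3M S5, while Egfl7 and Tek are bright in other cultures too.

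In all, 7 of the 10 genes had their highest level in WT 3M S5. Cdh5 and Pecam1 are among the 7, and their levels in that culture helped choose the list, so the count is a description. The share of all genes that were highest in WT 3M S5 is not given here. Egfl7 and Tek made up 25.2% of the summed level in Het 3M S8, 32.9% in Het 3M S10 and 12.5% in WT 3M S5. At the other end, Egfl7 and Tek made up 92.0% of the sum in Het 12M S1, 89.1% in Het 12M S16, 88.0% in Het 12M S15 and 85.2% in Het 3M S14. The other 8 genes summed to 0.785 to 15.6 CPM in Het 12M cultures and 2.23 to 12.9 CPM in WT 12M cultures. They summed to 1.53 to 40.2 CPM in Het 3M and 2.49 to 81.8 CPM in WT 3M cultures. Both 3M groups therefore spanned a wider range than either 12M group, with their lowest cultures within the range of the 12M cultures.

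Levels of different genes were compared per kilobase of annotated exon, as means over the 17 cultures. Egfl7 led with 1.51 CPM per kb, ahead of Tek with 0.788, Emcn with 0.599, Pecam1 with 0.573 and Cdh5 with 0.549 CPM per kb. Esam with 0.216, Tie1 with 0.169, Kdr with 0.128, Flt1 with 0.116 and Cldn5 with 0.0265 CPM per kb followed. Within WT 3M S5 the order was another: Pecam1 with 4.46 and Cdh5 with 4.40 CPM per kb came first, Emcn had 3.24, and Egfl7 had 1.57 CPM per kb. The order of the 4 group means was WT 3M, Het 3M, WT 12M and Het 12M from high to low for Cdh5, Pecam1, Flt1 and Tie1. For Kdr and Tek the last 2 changed places, for Emcn and Esam the first 2 did, and for Egfl7 the order was Het 3M, WT 12M, WT 3M and Het 12M. WT 3M S5 set much of this order. Without it the WT 3M mean of Cdh5 was 1.14 CPM, under the 4.17 CPM of Het 3M, and that of Tie1 was 0.544 CPM, under the 1.59 CPM of Het 3M. The WT 3M mean of Pecam1 was then 1.29 CPM, also under the 1.48 CPM of WT 12M, and that of Flt1, at 1.23 CPM, was the lowest of the 4 groups. With all cultures, in no tested gene did neighbouring means in that order differ by more than the larger of their SDs.

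Counts relative to Cdh5 within a culture are given as a description. Only 4 cultures had at least 50 Cdh5 counts: Het 3M S8 with 147, Het 3M S10 with 101, WT 3M S3 with 55 and WT 3M S5 with 385. Pecam1 had 1.51 and 1.32 counts per Cdh5 count in the Het 3M cultures S8 and S10, and 1.07 and 1.5 in the WT 3M cultures S3 and S5. Its 4 exact 95% intervals shared a common value, and so did those of Tie1, at 0.456 and 0.277 in Het 3M and 0.527 and 0.278 in WT 3M. A shared value did not mean closer ratios, since Tie1 varied 1.90 times and Emcn, whose intervals shared none, 1.65 times. Of these 4 cultures 3 are those whose levels chose the list. Emcn had close ratios of 1.56, 1.56 and 1.47 in Het 3M S8, Het 3M S10 and WT 3M S3, and a lower one of 0.948 in WT 3M S5. Kdr, at 0.313, 0.465, 0.673 and 0.301 in the same order, Flt1 and Esam varied by 2.23, 2.20 and 3.49 times between their lowest and highest ratios. Tek spanned 0.330 in WT 3M S5 to 1.78 in WT 3M S3, and Egfl7 spanned 0.304 to 1.82 between the same cultures, 5.40 and 5.98 times. The intervals cover counting error only.

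**Figure D3:**
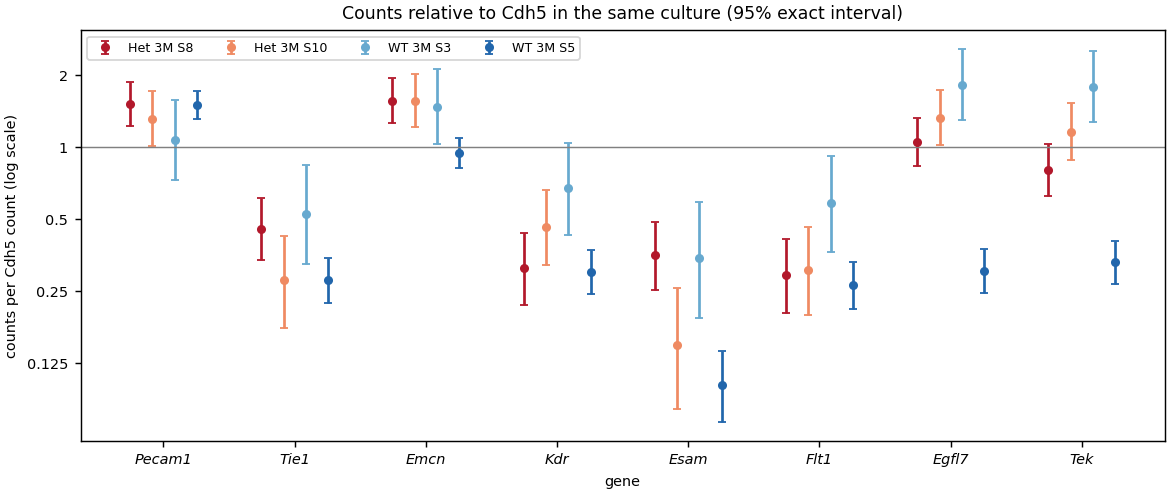
Counts of 8 genes per count of Cdh5 in the same culture (y axis, log scale) for the 4 cultures with at least 50 Cdh5 counts: Het 3M S8, Het 3M S10, WT 3M S3 and WT 3M S5. Bars are exact 95% intervals for counting error. Pecam1 stays between 1.07 and 1.51. Emcn, Kdr, Esam, Flt1, Egfl7 and Tek are all lowest in WT 3M S5, Egfl7 and Tek at 0.304 and 0.330. High Cdh5 in that culture helped choose the list.

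Likeness to Cdh5 was measured as Pearson's r of log2 CPM over the 17 cultures, a description that leans on the 3 high libraries. High Cdh5 and Pecam1 in those libraries chose the list, so the likeness of these 2 genes restates the choice. Of the 14897 genes tested, Pecam1 was the most like Cdh5 (r = 0.953, Spearman's rho = 0.948) and Tie1 the next (r = 0.948, rho = 0.939). Emcn took rank 5 with r = 0.915, Kdr rank 7 with 0.906 and Esam rank 12 with 0.738. Flt1 took rank 86 with r = 0.566, Egfl7 rank 1457 with 0.369 and Tek rank 1529 with 0.365. Egfl7 and Tek were not alike either, with r = -0.30 between them. The 2 cultures farthest from the median of Cdh5 were WT 3M S5 and Het 3M S8. Without them, and with Het 3M S10 still in, r was 0.914 for Pecam1, 0.908 for Tie1, 0.879 for Emcn and 0.882 for Kdr. It was then 0.573 for Esam, 0.420 for Flt1, 0.302 for Egfl7 and 0.247 for Tek.

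Outside the 10 genes, those most like Cdh5 were Ptprb (r = 0.934), the VE-PTP phosphatase that acts on VE-cadherin and TIE2, and Myct1 (0.916), an endothelial membrane protein. Next came Plvap (0.913), the diaphragm protein of fenestrated and sinusoidal endothelium, Mmrn2 (0.888), a matrix protein of vessels, and Robo4 (0.887), an endothelial roundabout receptor. Fgd5 (0.772), Icam2 (0.743), Sox18 (0.725), Prnd (0.723) and Igfbp5 (0.700) completed the 10. Of these 10, 7 were on the lists of further endothelial genes. Plvap, the highest of those 7, reached 6.37 CPM in Het 3M S8, 5.36 in Het 3M S10 and 11.5 in WT 3M S5. Igfbp5, a binding protein for insulin-like growth factors that stromal cells make in quantity, had a mean of 793 CPM, where the other 9 had means of 2.09 CPM or less. Without the 2 farthest cultures, r was 0.896 for Ptprb, 0.841 for Myct1, 0.845 for Plvap, 0.784 for Mmrn2 and 0.817 for Robo4. It was lower for the rest, at 0.627 for Fgd5, 0.621 for Icam2, 0.529 for Sox18, 0.527 for Prnd and 0.573 for Igfbp5.

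Genotype was compared at each age with edgeR's quasi-likelihood test on all genes. At 12 months, Het against WT, no gene passed an adjusted p of 0.05 (Benjamini-Hochberg), 0% of the 14897 tested, so the genes below are values and not calls. DESeq2 called 106 genes and limma voom with quality weights 171, none of the 9 among them. Of the 10 genes 9 entered the fit, Cldn5 having too few counts. Without adjustment 1246 genes (8.36%) had p under 0.05, and 1 of the 9 did, Egfl7. Of the 9, 7 were fitted lower in Het 12M, against 44.3% of all genes. The median log2 difference of the 9 was -0.56, against 0.05 for all genes. Several of the 9 ran together with Cdh5, so this count and median are a description and no test. Cdh5 differed by -0.58 (SE 1.34) and Pecam1 by -0.85 (SE 1.23) on the log2 scale, with 95% intervals of -3.41 to 2.25 and -3.45 to 1.76. Tek was the highest in Het 12M at 1.23 (SE 0.95) and Egfl7 stood at -0.75 (SE 0.31, adjusted p = 0.551). No gene of the 9 had groups that did not overlap, against 1.32% of all genes. Without WT 12M S7, the library with transcripts of both sexes, 4 of the 9 were fitted lower and the median was 0.15.

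At 3 months, Het against WT, again 0% of the 14897 genes passed, and 239 (1.6%) had an unadjusted p under 0.05. DESeq2 called 0 genes and limma voom with quality weights 1292. Of the 9 genes 6 were fitted lower in Het 3M, against 52.5% of all genes, with a median of -0.35 against -0.02 for all. Both groups hold cultures that chose the list, and several of the 9 ran together with Cdh5. The count and median are therefore a description and no test. Cdh5 differed by -0.39 (SE 1.5, 95% interval -3.56 to 2.78), an interval that takes in large differences both ways. Direction rested on single cultures and on the tool: with the quality weights all 9 were fitted higher in Het 3M (median 1.40). Without WT 3M S5, 1 of the 9 was lower, the median was 1.28, and Cdh5 and Pecam1 stood at 1.86 and 2.22. Without Het 3M S14, 1 of the 9 was lower (median 0.20), and without Het 3M S8, 8 were (median -0.79). Egfl7 was the exception, at 0.83 (SE 0.37, 95% interval 0.04 to 1.62, adjusted p = 1.00), and at 0.66 to 1.01 with any 1 culture left out; with the quality weights it passed, at 0.90 (limma voom, adjusted p = 0.00494). It averaged 7.43 ± 0.456 CPM in Het 3M and 4.19 ± 1.30 CPM in WT 3M (SD, n = 3 and 4), and was the 1 gene of the 9 whose groups did not overlap, against 6.78% of all genes (3.21% with Het higher).

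Age was compared within each genotype. In Het cultures, 12M against 3M, 0% of the 14897 genes passed and 489 (3.28%) had an unadjusted p under 0.05, while DESeq2 and limma voom called 1 gene each. All 9 genes were fitted lower in Het 12M, against 42.3% of all genes, with a median log2 difference of -2.01 against 0.07. Cdh5 and Pecam1, whose high levels in 3M cultures chose the list, are among the 9, and several others ran together with Cdh5. That count and median are therefore a description and no test. Cdh5 stood at -3.34 (SE 1.38, 95% interval -6.27 to -0.42) and Pecam1 at -2.88 (SE 1.30, interval -5.63 to -0.13). Both intervals leave out 0, but the levels of these genes in Het 3M S8 and S10 helped choose the list. The intervals are therefore no test either. Tie1 at -3.13 (SE 1.54), Emcn at -2.23 (SE 1.73) and Esam at -2.01 (SE 1.02) were also fitted lower, each with an adjusted p of 0.946. Flt1 at -0.23 (SE 0.94) and Tek at -0.25 (SE 0.98) lay near 0. Without Het 3M S8 the median was -0.82, with 7 of the 9 lower. Egfl7, at -0.84 (SE 0.34), averaged 4.14 ± 1.05 CPM in Het 12M and 7.43 ± 0.456 CPM in Het 3M, and was the 1 gene of the 9 whose groups did not overlap, against 1.92% of all genes (1.43% with 12M lower).

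In WT cultures, 12M against 3M, 0% of the 14897 genes passed and 1224 (8.22%) had an unadjusted p under 0.05, while DESeq2 called 53 and limma voom 1508. Of the 9 genes 8 were fitted lower in WT 12M, against 46.2% of all genes, with a median of -1.83 against 0.04. Here too Cdh5 and Pecam1 are counted, and their levels in WT 3M S5 helped choose the list. The count, the median and the fitted values of Cdh5 and Pecam1 are again a description and no test. Cdh5 stood at -3.15 (SE 1.52, 95% interval -6.37 to 0.06), Pecam1 at -2.41 (SE 1.40) and Tek at -1.83 (SE 1.02). Egfl7 alone was fitted higher, at 0.73 (SE 0.35, adjusted p = 0.612), and at 1.04 with limma voom (adjusted p = 0.00876). No gene of the 9 had groups that did not overlap, against 8.11% of all genes. Without WT 3M S5, 5 of the 9 were lower and the median was -0.18, with Cdh5 at -0.90 and Pecam1 at 0.19. The WT 3M group served here and in the comparison by genotype, so the values of the 2 share those cultures.

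The test of whether the age difference depended on genotype passed for 0% of the 14897 genes, and 858 (5.76%) had an unadjusted p under 0.05, while DESeq2 called 35 and limma voom 939. Egfl7 was the 1 member of the 9 among these, at -1.58 (SE 0.49, adjusted p = 0.594; -1.94 with limma voom, adjusted p = 0.00463): it was lower in Het 12M than in Het 3M and higher in WT 12M than in WT 3M. The interaction was fitted below 0 for 6 of the 9, against 43.7% of all genes. It was below 0 for 8 without WT 3M S5, 3 without WT 12M S7 and 1 without Het 3M S8. Cultures that chose the list enter the interaction, and several of the 9 ran together with Cdh5. These counts are therefore a description and no test. For Cdh5 the interaction was -0.19 (95% interval -4.32 to 3.94) and for Pecam1 -0.47 (-4.43 to 3.50).

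**Figure D4:**
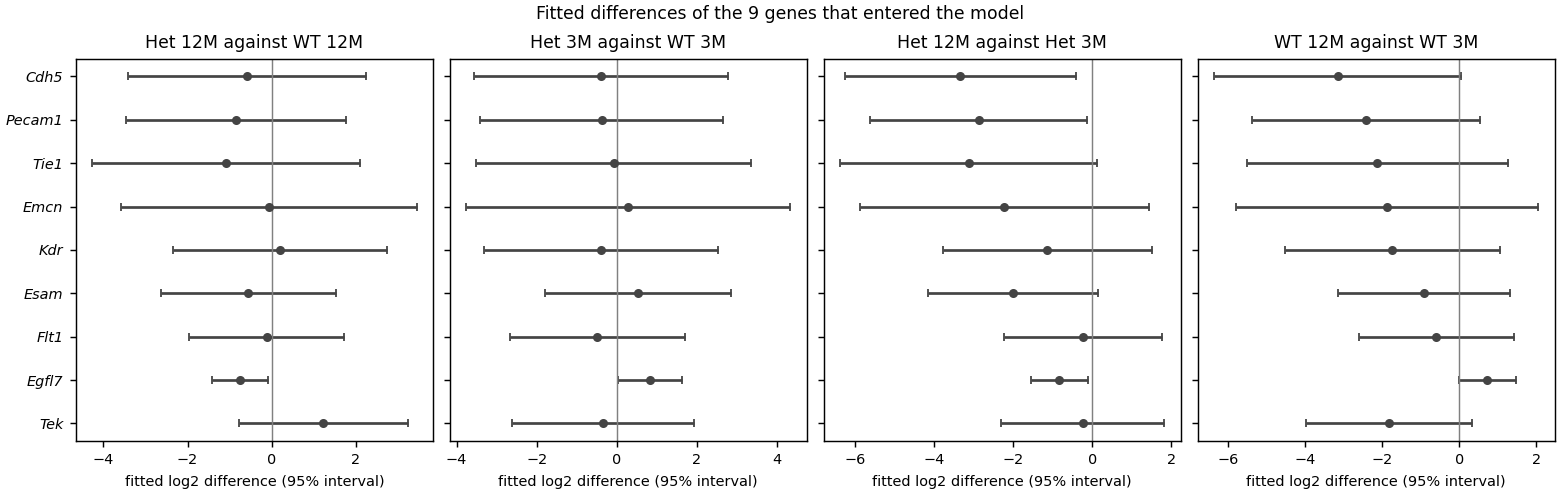
Fitted log2 differences (x axis, points, with 95% intervals) of the 9 genes in the model (rows, ordered by likeness to Cdh5), one panel per comparison: Het 12M against WT 12M, Het 3M against WT 3M, Het 12M against Het 3M and WT 12M against WT 3M. Intervals of most genes span several log2 units and cross 0; that of Egfl7 is the narrowest, and no gene passed an adjusted p of 0.05.

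Further endothelial genes and markers of other cell types were read from lists, and 0 genes of any list passed in any comparison. Of 24 other surface and secreted genes, 21 were tested. Of these, 11 were fitted lower in Het 12M than in WT 12M (median -0.12) and 16 in Het 3M than in WT 3M (median -0.23). By age, 14 were lower in Het 12M than in Het 3M (median -0.52) and 16 in WT 12M than in WT 3M (median -0.86). The 4 most abundant, Thbd, Eng, Cd34 and S1pr1, averaged 202, 104, 58.7 and 55.9 CPM. Thbd (thrombomodulin) and Eng (endoglin) are also made by stromal cells, and neither had its highest level in WT 3M S5. Of the 24 genes 9 did, and 5 had theirs in Het 12M S9.

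Of 14 endothelial transcription factors, 12 were tested and 0 passed. In Het 12M 7 were fitted lower than in WT 12M (median -0.48), in Het 3M 11 were lower than in WT 3M (median -0.61), and by age 5 were lower in Het 12M than in Het 3M and 5 in WT 12M than in WT 3M. The most abundant were Elk3, Nr2f2, Ets1 and Gata2, at means of 71.5, 40.9, 30.6 and 21.2 CPM. Erg, the ETS factor most tied to endothelium, was named here after its values were seen, and so was Fli1. Erg was highest in WT 3M S5 at 13.5 CPM, but had a median of 4.23 CPM and was never at 0. Fli1 was highest in Het 12M S9 at 52.8 CPM and stood at 8.31 CPM in WT 3M S5. Of the 14 factors 2 had their highest level in WT 3M S5 and 5 in Het 12M S9. Among 6 arterial genes 4 were tested, 0 passed, and 2 were fitted lower in each of the 4 comparisons. Their most abundant members were Efnb2 at a mean of 58.0 CPM, Hey1 at 5.26, Gja4 at 0.369 and Bmx at 0.292 CPM. The lymphatic and sinusoidal list had 3 tested genes and 0 passed. Stab1, its most abundant gene, which macrophages also express, stood at 1703 CPM in Het 12M S9 and at 118 CPM or less in the other cultures.

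The 10 VEGF and angiopoietin ligands and co-receptors were all tested, and 0 passed. Of them 5 were fitted lower in Het 12M than in WT 12M, 7 in Het 3M than in WT 3M, 5 in Het 12M than in Het 3M and 7 in WT 12M than in WT 3M. Nrp1 and Nrp2, the neuropilin co-receptors, averaged 269 and 193 CPM, and the ligands Vegfd and Vegfa 227 and 129 CPM. Angpt2, which sprouting endothelial cells release, was named here after its values were seen. It had its highest level in WT 3M S5 at 24.2 CPM, against 0.380 to 5.90 CPM elsewhere. Of the 10 genes 2 had their highest level in WT 3M S5 and 3 in Het 12M S9.

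Markers of other cell types were summed in the 3 cultures rich in Cdh5. The 14 leukocyte and macrophage genes, all highest in Het 12M S9, summed to 1197 CPM in Het 3M S8, 1363 in Het 3M S10 and 600 in WT 3M S5, against a median of 1197 CPM over all cultures. The 8 mural cell genes (smooth muscle and pericytes) summed to 2386 CPM in Het 3M S8, 3099 in Het 3M S10 and 1452 in WT 3M S5, against a median of 2022 CPM. Of the 7 mural genes tested 0 passed. The 7 genes of megakaryocytes and platelets, cells that also carry Pecam1 and Esam, summed to 23.2 CPM in Het 3M S8, 20.3 in Het 3M S10 and 12.4 in WT 3M S5, against a median of 27.9 CPM, and Gp9 had 2 counts in all. Of 4 erythroid genes found, 3 had no count in any culture. Het 3M S8, Het 3M S10 and WT 3M S5 are all labelled male. The other cultures labelled male had 0.612 CPM of Cdh5 in Het 12M S17, 0.918 and 0.0950 CPM in WT 12M S2 and S13, and 0.0791 CPM in WT 3M S12. WT 12M S6 and S7, labelled female with Y-linked transcripts, had 0.240 and 1.19 CPM. With labelled sex as a term, 7 of the 9 genes were fitted lower in Het 12M than in Het 3M (median -1.40) and 8 in WT 12M than in WT 3M (median -1.42). The labels go against the sex-linked transcripts in WT 12M, and the term was fitted as 1 value over all 17 cultures. In no comparison does it therefore show what sex contributes. By label 1 of the 6 Het 12M cultures and 2 of the 3 Het 3M cultures were male.

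**Figure D5:**
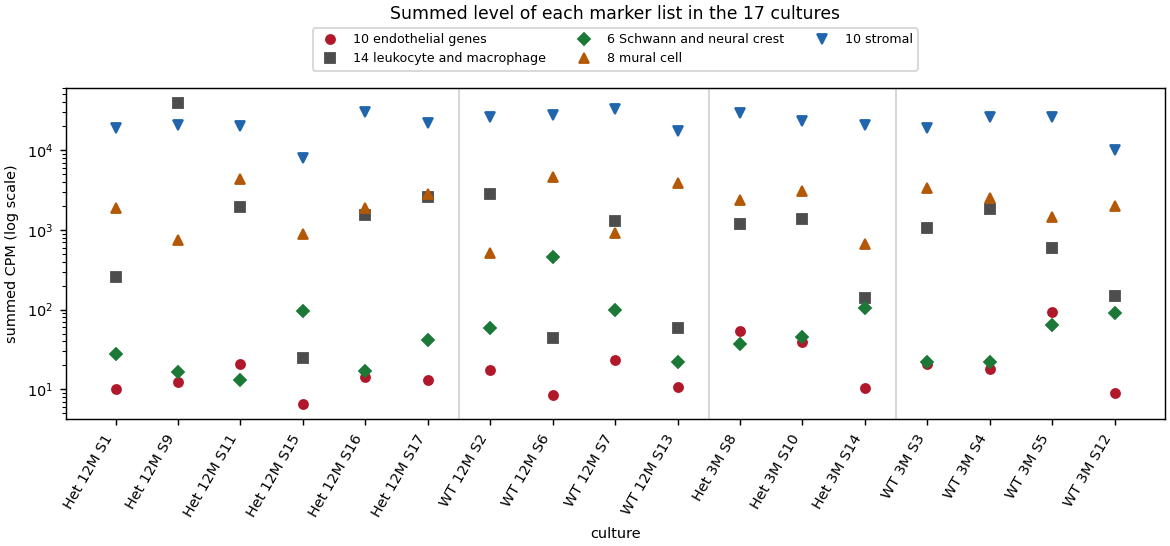
Summed level of 5 marker lists (y axis, CPM, log scale) in each of the 17 cultures (x axis, Het 12M, WT 12M, Het 3M and WT 3M from left to right). The 10 endothelial genes (circles) reach 93.5 CPM in WT 3M S5, while the leukocyte list (squares) peaks at 38968 CPM in Het 12M S9 and the stromal list (downward triangles) stays between 7978 and 33125 CPM.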

How the data were processed

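RNA-seq libraries of 17 cultures were made with a TruSeq RNA kit per the labels' protocols, 4 technical replicates each. Raw read counts per Entrez gene were deposited by the authors, made with Subread and featureCounts on mm10 per the submitters' processing notes; versions, filters and strand setting are not given in the sources used here. Identifiers were named from RefSeq (GRCm38.p6): 25275 of 27179 had a symbol, and those without held 0.573% of counts. Technical replicates, which differed by little more than sampling noise (chi-square per degree of freedom 1.02 to 1.06), were summed per culture. Library totals were 13687876 to 28597221 counts.

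Counts were scaled by TMM (factors 0.899 to 1.05), filtered with filterByExpr to 14897 genes and fitted with edgeR 4.0.16 (R 4.3.3) by quasi-likelihood, 1 term per group, all 17 cultures together, 2-sided, Benjamini-Hochberg over all genes, threshold 0.05. No sex term was used. Ratios carry exact binomial 95% intervals for counting error. Genes named were the 10 members and Ezh2, from each other list the up to 4 with the highest mean CPM, and the 10 genes most like Cdh5 by r of log2 CPM (prior count 2); genes outside this rule are said to be so or are given as counts. Members, lists and alternatives were chosen with earlier results of these data known, so no p adjusted over a list is given. Lists came from textbook markers; of 125 symbols 124 matched. Alternatives used DESeq2 1.42.0 and limma 3.58.1. The scripts were tested on simulated data.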

Additional observations from a re-analysis of the deposited data

Results flagged for a closer look

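In groups of 4 to 6 cultures, the highest or lowest culture was checked against the spread of the others in 34 sets of values, and 9 stood apart. For normally spread values chance alone sets apart about 1 in 20 sets. Here the CPM include many low values and some at 0, the sets are not independent, and some hold values that chose the genes. So 9 of 34 is not read against that rate. A set with only 1 culture above 0 is always set apart, as for Cldn5 in WT 3M. In WT 3M, culture S5 stood far above the other 3 for Cdh5 (18.5 CPM), Pecam1 (27.8 CPM), Flt1 (4.90 CPM), Cldn5 (0.481 CPM) and the summed level of the 10 genes (93.5 CPM). The levels of Cdh5 and Pecam1 in that culture helped choose the list and are part of the sum, so these 3 values are a description and no test. In Het 12M, culture S11 stood above the other 5 for Pecam1 (2.64 CPM), Tie1 (0.881 CPM) and Emcn (6.17 CPM). Ezh2 was low in WT 3M S12 (9.17 CPM) relative to the other 3 WT 3M cultures. Genes measured in the same culture are not independent, so the 5 sets in WT 3M S5 and the 3 in Het 12M S11 are 1 culture each. The Het 3M group, with 3 cultures, was too small for this check.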

How the results depend on the processing

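No paired analysis was possible because the replicate numbers in the labels count technical replicates of 1 culture, and culture numbers are not shared between groups. Counts of genes called depended on the tool. Against 0 in each comparison with edgeR, DESeq2 called 106 for Het 12M against WT 12M, 53 for WT 12M against WT 3M, 1 for Het 12M against Het 3M and 35 for the interaction. Limma voom with culture quality weights called 171, 1508, 1 and 939 in the same order, and 1292 for Het 3M against WT 3M, where DESeq2 called 0. These weights ranged from 0.118 for Het 12M S15 to 8.88 for Het 3M S8, and WT 3M S5 had 0.306. Without WT 12M S6 and the Het 12M cultures S9 and S15, 2 genes passed for WT 12M against WT 3M, and 6, 6, 8 and 7 of the 9 endothelial genes were fitted lower for Het 12M against WT 12M, Het 3M against WT 3M, WT 12M against WT 3M and Het 12M against Het 3M. With 1 culture left out at a time, 0 to 2 passed for Het 12M against WT 12M (2 without WT 12M S13, 1 without WT 12M S7), 0 to 1 for WT 12M against WT 3M (1 without Het 12M S15) and 0 in the others.

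With limma voom quality weights 1292, 1508 and 939 of the 14897 genes passed for Het 3M against WT 3M, WT 12M against WT 3M and the interaction. A single gene that passed there is 1 among many. Among the 10 genes Egfl7 passed with these weights and with no other alternative: 0.90 for Het 3M against WT 3M (limma voom, adjusted p = 0.00494), 1.04 for WT 12M against WT 3M (0.00876) and -1.94 for the interaction (0.00463). Outside that tool its lowest adjusted p was 0.117, for the interaction without those 3 cultures. With the weights all 9 genes were fitted higher in Het 3M than in WT 3M (median 1.40), the opposite of the unweighted median. The cause was not tested. RLE factors, no filter, DESeq2 and fits of only the groups compared turned no direction of the 9 genes; library totals alone turned 1 of 45, the labelled sex term 3 of 45, technical replicate 1 alone 5 of 35, the fit without those 3 cultures 6 of 45 and the quality weights 10 of 45. Leaving out 1 culture at a time turned 58 of 765. Depth limits the lowest genes: Tie1 had 3 counts or fewer in 9 of 17 cultures.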
